A study of Homo sapiens with 6 samples.

Results

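Myc binding was followed at the promoters of the genes that encode the 26S proteasome, its activators and its assembly factors. The members were the protein-coding genes of the GENCODE annotation on hg19 whose symbol is PSMA, PSMB, PSMC, PSMD, PSME, PSMF or PSMG with a number, together with POMP and ADRM1. This rule gave 50 genes out of 19785 protein-coding genes, and it used no measured value. Myc was immunoprecipitated with its DNA and sequenced (ChIP-seq) in MDA-MB-231, a human triple-negative breast cancer line, as unedited parental cells and as TXNIP-knockout (TKO) cells. TXNIP is an arrestin-family protein that restrains glucose uptake. There were 2 Myc libraries per cell line, described in the study as biological replicates, and both lines grew in the same serum-containing medium. TKO cells came from knockout clones grown from single cells after CRISPR/Cas9 editing, so loss of TXNIP and properties of a clone cannot be told apart. Peak lists hold neither transcript levels nor a signal at the edited site, so neither the knockout nor the identity of the line could be checked from them.

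The proteasome degrades proteins tagged with ubiquitin. Its 20S core is a barrel of alpha rings, which gate the entrance, and beta rings, which hold the cutting sites, and a 19S particle on either end recognises, unfolds and feeds in the substrate. Dedicated chaperones assemble each piece, other activators can replace the 19S cap, and in cells exposed to interferon the cutting subunits are exchanged for immunoproteasome forms. Myc binds DNA as a dimer with Max, preferring the E-box CACGTG, and is found at the promoters of many growth genes.

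A promoter peak was a Myc peak of the authors' list whose summit, the position of highest signal, lay within 1 kb of an annotated transcript start of the gene. The parental lists held 3720 and 5719 peaks, those of TKO 27213 and 25887. Depth recovered from the lists was 26.4 and 22.2 M reads for parental libraries 1 and 2 and 19.9 and 13.0 M reads for TKO libraries 1 and 2. These depths rest on a fragment extension inferred from the narrowest peak of each list, and at a common extension of 140 bp they would be 26.4, 23.9, 25.9 and 18.7 M reads. The weakest peaks had 13, 10, 9 and 7 summit reads, in the same order. A missing peak therefore means that no peak was called at that depth, not that Myc was absent.

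Myc promoter peaks were found at most proteasome genes in TKO cells and at a minority of them in parental cells. In parental libraries 1 and 2, 18 and 16 of the 50 members had one, against 12.2% and 12.9% of all protein-coding genes. In each TKO library 46 members had one, against 49.1% and 49.7% of all genes. As shares of the members these were 36.0% and 32.0% in parental cells and 92.0% in both TKO libraries. Both TKO libraries lay above both parental libraries, by 2.71-fold in the mean count (17 ± 1.41 in parental, 46 ± 0 in TKO, SD, n = 2). The exact two-sided permutation test over the 4 libraries gave p = 0.333, the smallest value that 2 against 2 can give.

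The size of this difference moved with the length of the lists. When every list was kept to its 3720 strongest peaks by fold, 18 and 11 members were bound in the parental libraries, against 17 and 20 in those of TKO (exact permutation p = 0.667). The shares of all genes were then 12.2%, 9.01%, 13.9% and 14.3%. At equal length PSMA6 was the only member bound in both TKO and no parental library (2.43% of all genes were). A further 7 members (5.35% of all genes) were bound in all 4 libraries, namely PSMA1, PSMB3, PSMC2, PSMD3, PSMD9, PSME3 and PSMF1.

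With the lists at full length, 14 members were bound in both parental libraries, against 9.36% of all genes, and all 14 were bound in both TKO libraries as well (99.5% of all genes bound in both parental libraries were). Another 6 members were bound in both TKO libraries and 1 parental library (6.16% of all genes), and 25 in both TKO libraries and no parental library (29.8% of all genes). In all, 45 members were bound in both TKO libraries, against 45.2% of all genes. The remaining members were PSMD1 and PSME1, each with a peak in 1 TKO library only (8.2% of all genes), and PSMA7, PSMA8 and PSMB11, with none in any library (46.3% of all genes).

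Promoter peaks were found in every subcomplex of the proteasome, apart from the tissue-restricted subunits. In both TKO libraries peaks were called at 6 of 7 genes of the 20S alpha ring and at 7 of 7 of the beta ring. All 3 immunoproteasome genes, all 6 ATPases of the 19S base and all 8 19S lid genes among the members were bound there too. So were 3 of the 4 other 19S base genes, all 8 assembly chaperone genes of the 19S and 20S, 3 of the 4 activator genes and the inhibitor gene PSMF1.

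In parental cells the same parts were bound in part. Both parental libraries had a peak at 3 alpha ring genes, 2 beta ring genes, 3 base ATPase genes, 1 lid gene and 1 other base gene. They also shared a peak at 1 gene each of the 19S assembly chaperones (PSMD9), the 20S assembly chaperones (PSMG4), the activators (PSME3) and the inhibitor (PSMF1). The 19S lid, which strips ubiquitin from the substrate, had 6 of its 8 members bound in TKO only, beside 29.8% of all genes, and none of them at equal list length. No immunoproteasome gene was bound in both parental libraries. These counts are small, and no part was tested against another.

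**Figure D1:**
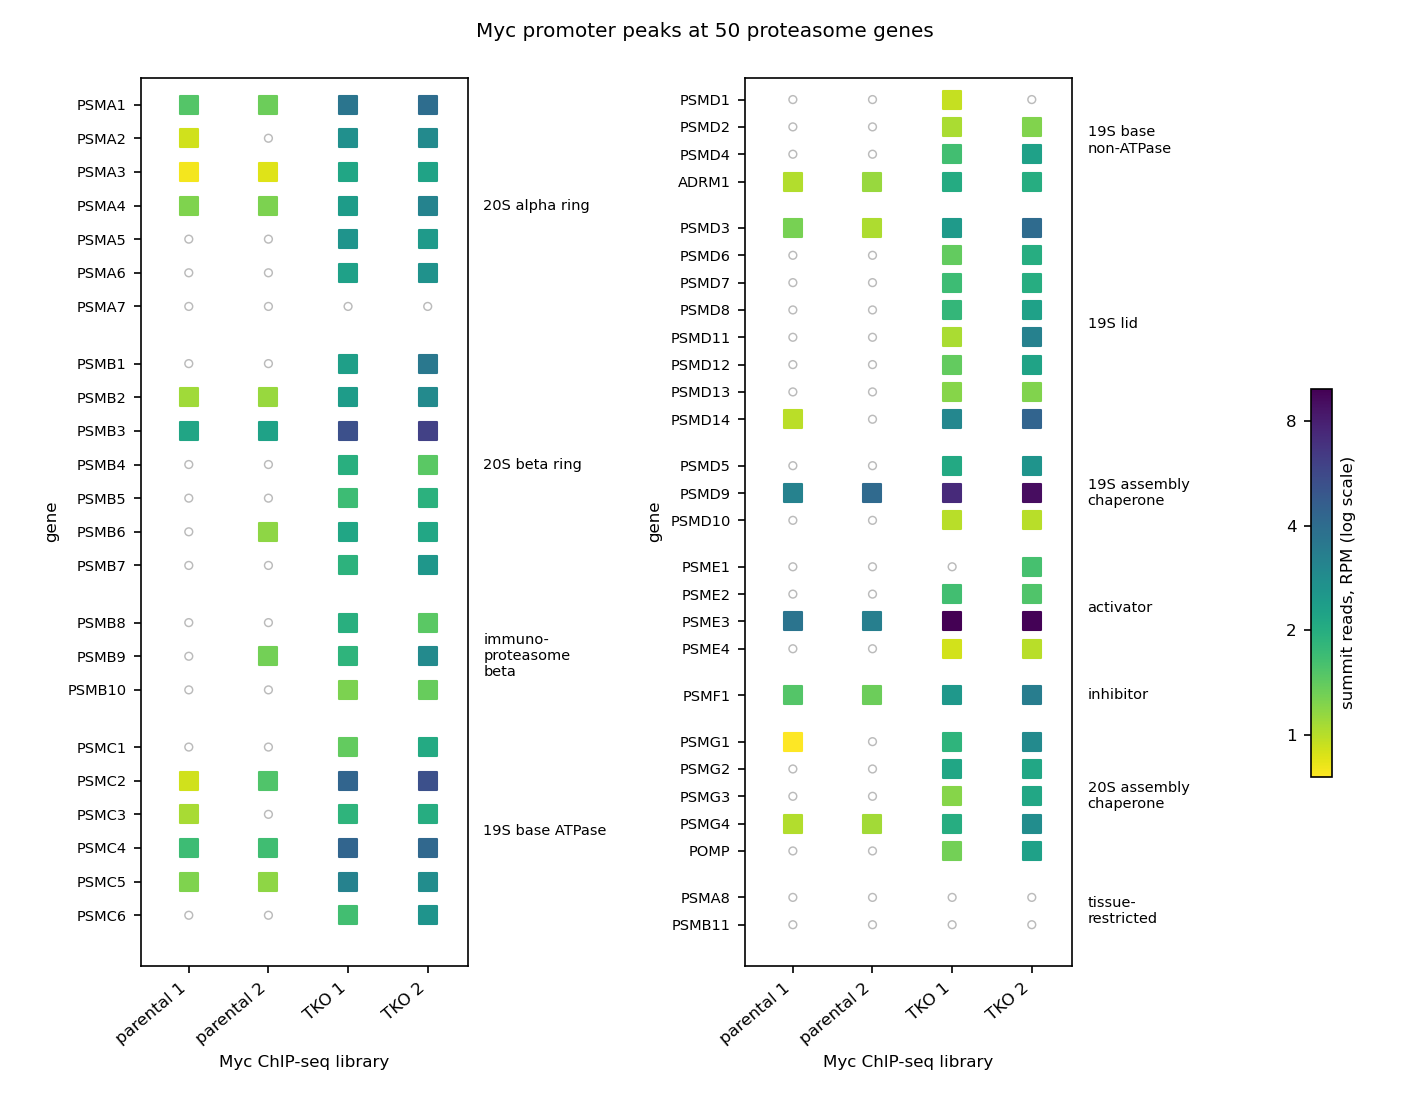
Each row is a proteasome gene, grouped by subcomplex, and each column a Myc ChIP-seq library. Filled squares are promoter peaks coloured by summit reads per 1000000 reads of the library (RPM) on a log scale and open circles mark genes without a called peak, with 18, 16, 46 and 46 squares from left to right.

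The 14 members bound in all 4 libraries allow the signal itself to be compared. Summit reads are the reads covering the summit of the gene's strongest promoter peak, and they are given per 1000000 reads of the library (RPM). The 3 highest members in every one of the 4 libraries were PSME3, PSMD9 and PSMB3. PSME3 encodes the nuclear activator REG gamma, which opens the 20S core without the 19S cap. Its summit held 97 and 73 reads in the parental libraries, then 198 and 127 in TKO, or 3.67, 3.29, 9.93 and 9.74 RPM. The TKO values were close to each other and lay above both parental values, at a ratio of 2.83.

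PSMD9 encodes a chaperone that escorts ATPase subunits during assembly of the 19S base. It had 85 and 91 summit reads in the parental libraries, then 146 and 119 in TKO, or 3.22, 4.10, 7.32 and 9.13 RPM, a ratio of 2.25. PSMB3, a beta ring subunit without a cutting site, had 58 and 50 parental reads, then 106 and 79 TKO reads. That gave 2.19, 2.25, 5.31 and 6.06 RPM, with almost no spread in parental cells, and the ratio was 2.56.

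These were also the only members of the 14 with a CACGTG E-box within 100 bp of the summit in every library. The windows of 101 bases around the summit of TKO library 1 are shown for PSMD9 and PSMB3, with the E-box in capitals, on the strand of the gene and in GRCh37 (hg19) coordinates. For PSME3 the 30 bases around the E-box are shown, since its window overlaps an annotated first exon.
PSMD9, chr12:122326470-122326570, plus strand: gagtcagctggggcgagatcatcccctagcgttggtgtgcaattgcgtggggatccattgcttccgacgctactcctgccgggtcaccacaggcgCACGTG
PSMB3, chr17:36908682-36908782, plus strand: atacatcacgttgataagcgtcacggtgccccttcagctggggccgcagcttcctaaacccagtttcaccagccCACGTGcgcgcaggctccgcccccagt
PSME3, chr17:40985360-40985389, plus strand: ggctgcgcagcgCACGTGcacagcctcgca

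Distances were measured from the third base of the E-box to the summit. At PSMD9 the E-box lay 7 and 6 bp from the parental summits and 47 and 21 bp from the TKO summits. At PSMB3 it lay 2 and 17 bp from the parental summits and 26 and 9 bp from the TKO summits. At PSME3 the parental distances were 4 and 25 bp, those in TKO 56 and 75 bp. The TKO summits of PSME3 thus stood farther from the E-box, by a step small beside its peak widths of 1247 and 1211 bp in TKO.

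The E-box members were above the others in level, while their TKO to parental ratios were near those of the others. Their values ran from 2.19 to 3.67 and from 2.25 to 4.10 RPM in the parental libraries and from 5.31 to 9.93 and from 6.06 to 9.74 in TKO. The 9 members without a CACGTG within 100 bp in any library ran from 0.795 to 1.70, from 0.856 to 1.67, from 2.06 to 4.31 and from 1.99 to 5.29. These 2 groups of 3 and 9 members did not overlap in any library. The split rests on the 100 bp limit and not on the whole peak. PSMC4, the highest of the 9 in both parental libraries, had CACGTG beyond that limit. It lay within the peak of PSMC4 in parental library 2 and both TKO libraries. The other 2 of the 14, PSMB2 and PSMG4, had CACGTG within 100 bp of the summit in 1 parental library each, and their levels lay below those of the 3 E-box members. Across all 1843 genes bound in all 4 libraries the difference was smaller, with medians of 1.63, 1.62, 4.01 and 4.53 RPM for 417 genes with the E-box in every library and 1.36, 1.40, 3.31 and 3.68 for 1131 genes without it. Ratios ranged from 2.25 to 2.83 (median 2.56) in the E-box members and from 1.88 to 3.93 (median 2.53) in the 9 others. The 3.93 was that of PSMC2, whose values come from different peaks. The next highest of the 9 was 2.81 at PSMD3, just below the 2.83 of PSME3.

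**Figure D2:**
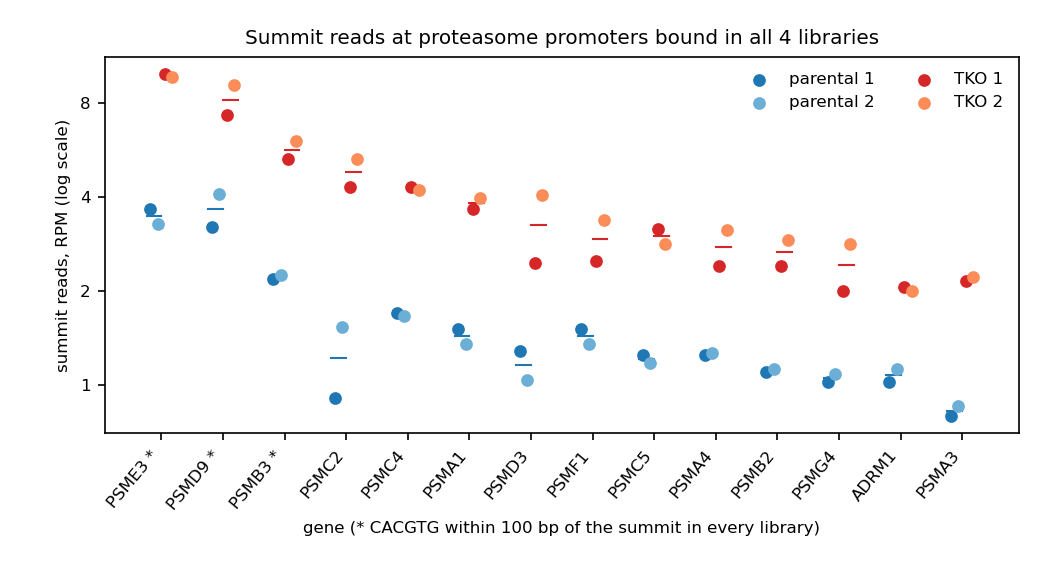
Summit reads in RPM (log axis) at the 14 proteasome promoters bound in all 4 libraries, ordered by their mean, with a point per library and a short line for the mean of each cell line. Both TKO points lie above both parental points at every gene, and the genes marked with * (CACGTG within 100 bp of the summit in every library) are the 3 highest. At PSMC2 the peak of parental library 1 is not the one used in the other libraries. At PSMA3, PSMB2 and PSMG4 the parental libraries have separate peaks that do not overlap each other.

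Of the other 20S genes, PSMA1 and PSMA4 of the alpha ring were the highest by their mean. PSMA1 had 40 and 30 parental summit reads, then 73 and 52 in TKO, or 1.51, 1.35, 3.66 and 3.99 RPM, a ratio of 2.67. PSMA4 had 33 and 28 parental reads, then 48 and 41 in TKO, or 1.25, 1.26, 2.41 and 3.14 RPM, a ratio of 2.21. The parental values of PSMA4 were nearly equal, and the TKO values differed by more than that but stayed above them.

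PSMA3, also of the alpha ring, was the lowest of the 14 in both parental libraries, with 21 and 19 reads there and 43 and 29 in TKO, or 0.795, 0.856, 2.16 and 2.22 RPM. PSMB2, a beta ring subunit without a cutting site, had 29, 25, 48 and 38 reads, or 1.10, 1.13, 2.41 and 2.91 RPM, a ratio of 2.39. For both genes the values of the 2 cell lines did not overlap. However, the parental values came from separate peaks at each gene. The parental summits lay at -458 and +432 bp from the nearest start at PSMA3 and at +5 and -160 bp at PSMB2.

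Among the 19S genes the base ATPases, the ring of motors that unfolds substrates, contributed 3 of the 14. PSMC4 had 45 and 37 parental summit reads, then 86 and 55 in TKO, or 1.70, 1.67, 4.31 and 4.22 RPM, a ratio of 2.53 with little spread in either line. PSMC5 had 33, 26, 63 and 37 reads, or 1.25, 1.17, 3.16 and 2.84 RPM. Its summits lay in a UTR exon of the divergent gene FTSJ3, so the peak belongs to a shared start region.

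PSMC2 had the highest ratio of the 14, 3.93, and its values do not come from a single place. In parental library 1 the summit was at the main start of PSMC2, with 24 reads. In the other 3 libraries the strongest peak, with 34, 86 and 69 reads, was at an upstream start within 11 bp of the start of the divergent gene DNAJC2. At the main start alone the values were 24 reads in parental library 1, none called in parental library 2, and 39 and 23 in TKO, or 0.908, 1.96 and 1.76 RPM.

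ADRM1 and PSMD3 were the other 19S members bound everywhere. ADRM1, a ubiquitin receptor of the base, had 27, 25, 41 and 26 reads, or 1.02, 1.13, 2.06 and 1.99 RPM, and the lowest ratio of the 14, 1.88. These values come from a peak at an upstream start of ADRM1, with parental summits at -982 and -968 bp from the main start. Another peak, nearer the main start at -197 and -278 bp, was called in TKO only, with 27 and 21 reads. PSMD3, a scaffold subunit of the lid, had 34, 23, 49 and 53 reads, or 1.29, 1.04, 2.46 and 4.07 RPM. TKO library 2 stood above TKO library 1 at PSMD3, and the TKO mean of 3.26 ± 1.14 (SD, n = 2) had the widest spread, relative to the mean, of the 14.

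The inhibitor PSMF1, which blocks 20S activation in vitro, had 40, 30, 50 and 44 reads, or 1.51, 1.35, 2.51 and 3.37 RPM, a ratio of 2.05. PSMG4, part of a chaperone pair that builds the alpha ring, had 27, 24, 40 and 37 reads, or 1.02, 1.08, 2.01 and 2.84 RPM. Its strongest summit moved between libraries, at +840, -13, +629 and +108 bp from the nearest start. Summits of the 4 libraries lay within 150 bp of each other at 9 of the 14 members and beyond that at PSMA3, PSMB2, PSMC2, PSMC5 and PSMG4, compared with 73.7% within 150 bp over the 1843 genes.

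Windows of 101 bases around the summit of TKO library 1 are shown for the members of highest mean rank without CACGTG there whose window touched no exon, to set beside those of PSMD9 and PSMB3. PSMB2 and PSMG4 do have a CACGTG within their peak, 170 and 114 bp from this summit and outside the window.
PSMB2, chr1:36107157-36107257, minus strand: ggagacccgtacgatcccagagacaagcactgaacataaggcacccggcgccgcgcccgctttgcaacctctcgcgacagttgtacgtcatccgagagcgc
PSMG4, chr6:3259797-3259897, plus strand: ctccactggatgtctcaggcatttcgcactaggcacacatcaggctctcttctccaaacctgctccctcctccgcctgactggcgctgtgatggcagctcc
PSMA4, chr15:78832618-78832718, plus strand: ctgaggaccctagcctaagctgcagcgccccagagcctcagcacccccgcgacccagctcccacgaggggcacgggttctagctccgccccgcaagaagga

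As a group the 14 promoters carried more summit signal in TKO by nearly the amount seen over all genes. The library medians over the 14 were 1.27 and 1.31 RPM for the parental libraries, with 2.83 and 3.68 for those of TKO. The TKO to parental ratio of the mean medians was 2.53 (1.29 ± 0.0279 against 3.26 ± 0.6, SD, n = 2), with p = 0.333 in the exact permutation test. Every TKO value exceeded every parental value at 14 of 14 members, and at 99% of the 1843 genes bound in all 4 libraries. The median gene had a ratio of 2.50 among the members and 2.56 over those genes, whose middle range ran from 2.25 to 2.87. The extension inferred from the narrowest peak was 140 and 151 bp for the parental lists and 182 and 201 bp for the TKO lists, and with summit reads scaled to the shortest extension the ratio was 1.91. A ChIP library averages over its cells, so more cells with Myc bound and more Myc bound per cell cannot be told apart.

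Members bound in TKO only had less TKO signal than those also bound in parental cells. In TKO library 1 their median was 1.65 RPM, against 2.83 for the 14 members bound everywhere and 2.01 for the 6 bound in 1 parental library. In TKO library 2 these medians were 2.15, 3.68 and 2.91. The same order held over all genes, at 1.35, 3.41 and 2.01 RPM in TKO library 1 and 1.69, 3.84 and 2.45 in TKO library 2. Ranges overlapped, from 0.902 to 2.61 in TKO-only members and from 2.01 to 9.93 in the 14 for TKO library 1.

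Of the 25 TKO-only members, those ranked highest in the TKO lists included genes of the core and its assembly. PSMA6, of the alpha ring, had 46 and 35 summit reads in TKO, or 2.31 and 2.68 RPM. PSMG2, a partner in the alpha ring chaperones, had 43 and 28 reads, or 2.16 and 2.15 RPM. POMP, the maturation factor that guides beta ring assembly, had 26 and 30 reads, or 1.30 and 2.30 RPM.

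Also in this upper set were PSMD12, a scaffold subunit of the lid, with 28 and 29 reads, and PSMB1, a beta ring subunit, with 47 and 46 reads. PSMB7, which carries the trypsin-like cutting site, completed it with 38 and 33 reads. For these 3 genes the levels were 1.40 and 2.22, 2.36 and 3.53, and 1.91 and 2.53 RPM. All 3 levels were higher in TKO library 2, the shallower of the pair.

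The cutting subunits of the core were bound in TKO throughout. PSMB5, which carries the chymotrypsin-like site and is the target of bortezomib, had 34 and 25 summit reads in TKO, or 1.70 and 1.92 RPM, and no parental peak. PSMB6, with the caspase-like site, had 26 reads in parental library 2, none called in parental library 1, and 43 and 28 in TKO, or 1.17, 2.16 and 2.15 RPM. Neither these nor PSMB7 reached the level of PSMB3, a subunit of the same ring without a cutting site.

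The immunoproteasome genes that replace these were bound in TKO as well. PSMB10 had 25 and 18 reads in TKO, or 1.25 and 1.38 RPM. PSMB8 had 39 and 19 reads in TKO, or 1.96 and 1.46 RPM, at percentiles of 11.4 and 14.5 by fold within the lists, with a local background of 9.68 reads in TKO library 1. These PSMB8 values came from peaks that do not overlap each other, with summits 791 bp apart. PSMB9 had 29 reads in parental library 2 and 37 and 38 in TKO, or 1.31, 1.85 and 2.91 RPM, in the start region it shares with TAP1, a peptide transporter of antigen presentation.

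The lowest ranked TKO-only members were PSMB8, PSMC6 and PSMB10. PSMC6, an ATPase of the base, had 33 and 34 reads in TKO, or 1.65 and 2.61 RPM, over a local background of 9.68 and 6.33 reads. Its percentiles of 4.16 and 28.5 by fold were low, beside median summit reads of 39 and 31 over the bound members.

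The members bound in 1 parental library were PSMA2, PSMC3, PSMD14 and PSMG1 in library 1 and PSMB6 and PSMB9 in library 2. PSMD14, the deubiquitinase of the lid, was the strongest of them in TKO, with 26 reads in parental library 1 and 60 and 57 in TKO, or 0.984, 3.01 and 4.37 RPM. PSMG1, a chaperone of the alpha ring, had 20 reads in parental library 1 and 37 and 38 in TKO. Its parental level of 0.757 RPM was the lowest of any called member.

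Genes without a promoter peak were few and differed in kind. PSMA8 is a testis form of an alpha subunit and PSMB11 a thymus form of a beta subunit, and their nearest summits in TKO were 42.6 and 42.7 kb away and 7.42 and 7.32 kb away. PSMA7, an alpha ring gene that every cell needs, had its nearest TKO summits just outside the window, 1.14 and 1.07 kb from its starts. In parental cells its nearest summits were 39.5 and 159 kb away. PSMD1, a scaffold subunit of the 19S base, had 19 reads in TKO library 1 only, and PSME1, an interferon-inducible activator, 21 reads in TKO library 2 only.

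Ranked within their own lists by the authors' fold of summit over background, proteasome promoters stood near the middle in parental cells and higher in TKO. The median percentile of members was 43.7 and 49.2 for the parental lists, with 78.2 and 81.9 for those of TKO (exact permutation p = 0.333 over libraries). Over all genes with a promoter peak it was 56.8 in both parental lists, with 71.0 and 70.6 for those of TKO. With the lists at full length, members were therefore below the all-gene median in both parental libraries and above it in both TKO libraries. The percentile depends on the length of the list, and with lists of equal length the difference between lines fell from 33.6 to 15.2 points. The members' medians were then 43.7 and 26.5 in the parental lists and 45.3 and 55.3 in those of TKO. No all-gene median was set beside these.

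Background reads enter this rank. At PSMC4 the local background was 9 and 11 reads in the parental lists and 6.45 and 5.27 in the TKO lists. These counts are not corrected for depth, which was 26.4, 22.2, 19.9 and 13.0 M reads in that order. For parental library 1 the background also refers to a depth scaled by 0.837. The counts therefore do not show whether background at PSMC4 differed between the lines. The percentiles of PSMC4 were 12 and 3.46 in the parental lists, with 93.5 and 86.0 in those of TKO. The background is computed by the authors' peak caller from the input, of which there was 1 per cell line, and its part in the ranks was not tested.

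**Figure D3:**
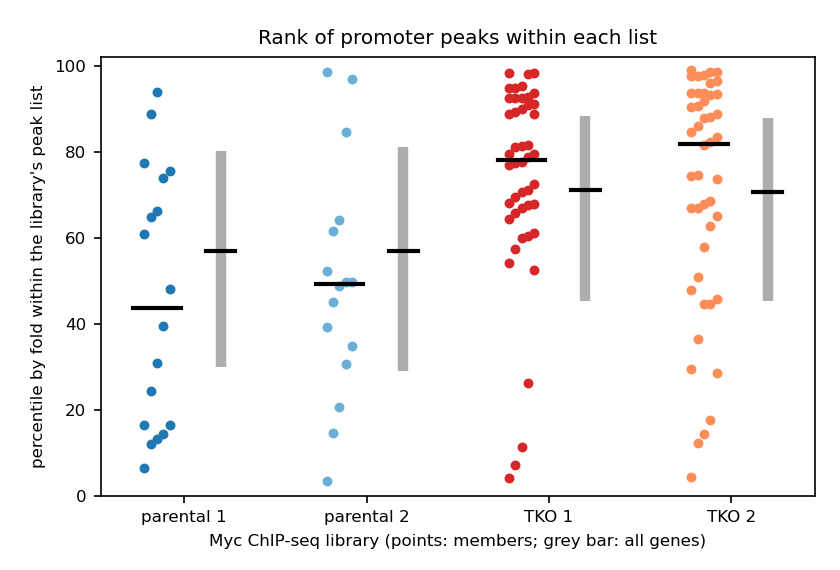
Percentile of each member's strongest promoter peak by fold within its library's list, a point per bound member with the median as a black line. Grey bars give the middle range and median of all genes with a promoter peak, at 56.8, 56.8, 71.0 and 70.6 from left to right.

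Member peaks were broader in TKO and sat close to the start. Their median widths in parental libraries 1 and 2 and TKO libraries 1 and 2 were 186.5, 256, 585.5 and 588 bp, against 243, 241, 468 and 475 bp over all genes. The narrowest peak of each list was 140, 151, 182 and 201 bp in that order, so widths had a higher floor in TKO. These medians also cover different sets of bound members, 18, 16, 46 and 46. The median distance from summit to nearest start was 76.0, 89.5, 101.5 and 81.0 bp, against 108, 108, 150 and 146 bp over all genes. In TKO, 30 and 31 of 46 summits lay within 150 bp of a start (65.2% and 67.4%, against 50.0% and 50.8% of all genes). Most summits lay upstream, at 13 of 18, 15 of 16, 30 of 46 and 27 of 46 (72.2%, 93.8%, 65.2% and 58.7%, against 61.6%, 66.9%, 55.5% and 55.9% of all genes), so TKO library 2 was near the share of all genes.

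**Figure D4:**
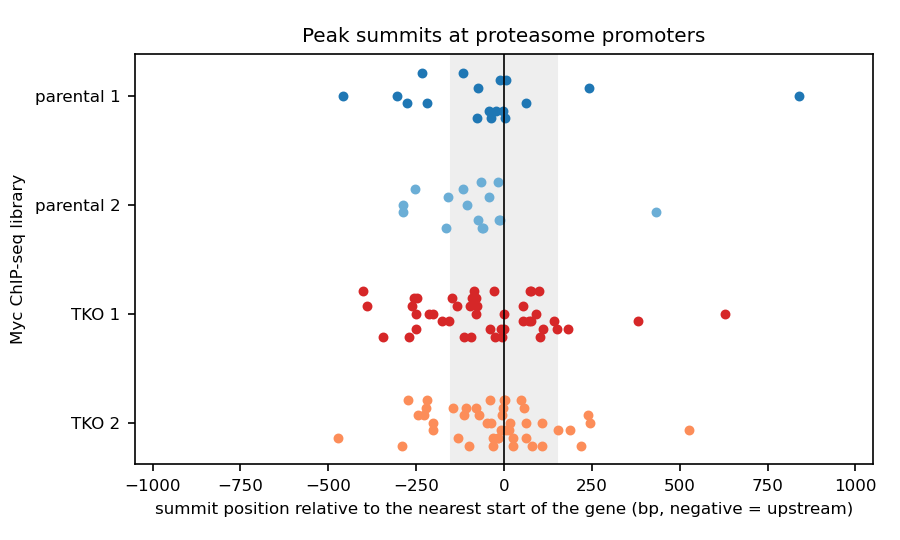
Position of the strongest promoter summit of each bound member relative to the nearest start of that gene in bp, a row per library, with the zone within 150 bp shaded. Median distances were 76.0, 89.5, 101.5 and 81.0 bp from top to bottom.

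CACGTG within 50 bp of the summit was found at 3 of 18 and 3 of 16 bound members in parental cells and at 2 of 46 in each TKO library. These shares were 16.7%, 18.8%, 4.35% and 4.35% in that order, against 21.6%, 18.5%, 9.14% and 8.10% over all genes with a promoter peak. Windows centred 1 kb to either side of the members' summits held it in 0.00%, 3.13%, 1.09% and 0.00%. The members involved were PSMB3 and PSMD9 in every library and PSME3 in the parental ones. The share fell by 13.4 percentage points from parental to TKO (exact permutation p = 0.333).

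Promoter sequences around the main start, from 250 bases before it to 50 after it, were searched on both strands for 6 motifs. CACGTG was present at 3 of 50 members (6%, against 8.72% of all promoters), and those were again PSMB3, PSMD9 and PSME3. Its variant CACGCG was present at 6 (12% against 15.2%), CCAAT at 21 (42.0% against 35.9%) and the NRF1 motif at 1 (2% against 1.70%). The ETS motif CCGGAAGT was present at 14 members (28.0%), against 6.07% of all promoters and 11.3% of those bound in both TKO libraries. The core of the antioxidant response element, TGACNNNGC, which the proteasome regulators NFE2L1 and NFE2L2 recognise, was present at 15 (30%), against 14% and 15.1%.

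The ETS motif and the E-box lay in different members. Of the 14 ETS promoters 13 were bound in both TKO libraries, close to the 84.4% of all genes with this motif and the 90% of all members that were. The motif was held by 10 of the 25 TKO-only members (40%, against 10.2% of all TKO-only genes) and by 2 of the 14 members bound everywhere (14.3%, against 13.9% of all genes bound in both parental libraries). No promoter of the 25 TKO-only members held CACGTG. At 6 members the ETS motif lay within 100 bp of the strongest summit in both TKO libraries, and 30 bases around it are shown for these, with the motif in capitals in either orientation, to set the summits without an E-box beside those with one.
POMP, chr13:29233211-29233240, plus strand: aggacggacgcACTTCCGGcggatgtgggg
PSMA6, chr14:35761593-35761622, plus strand: cagtcgctgcaACTTCCGGgaggtgcttgt
PSMB7, chr9:127177749-127177778, minus strand: tgccagcgacgCCGGAAGTgctcggctctt
PSMC1, chr14:90722895-90722924, plus strand: gtggtggaggaACTTCCGGcagcggcagct
PSMD12, chr17:65362684-65362713, minus strand: gtgcgcgggcaACTTCCGGtgtgggtgacg
PSMF1, chr20:1099228-1099257, plus strand: ctgttgggactACTTCCGGcttccccgccc

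Measured from the summits of TKO libraries 1 and 2, the motif lay 63 and 40 bp away at POMP, 45 and 51 bp at PSMA6 and 33 and 12 bp at PSMB7. It lay 67 and 17 bp away at PSMC1, 81 and 2 bp at PSMD12 and 29 and 42 bp at PSMF1. These matches describe the letters in the windows, and whether an ETS factor was present was not measured.

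**Figure D5:**
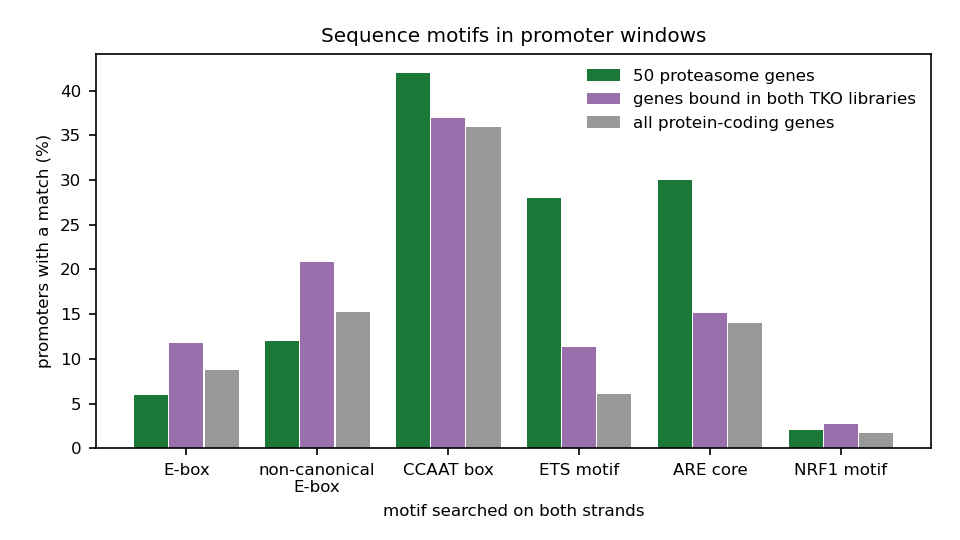
Share of promoters, from 250 bases before to 50 after the main start, with a match to each of the 6 motifs, where the non-canonical E-box is CACGCG, for the 50 proteasome genes, genes bound in both TKO libraries and all protein-coding genes. The ETS motif (28.0% against 6.07% of all promoters) and the antioxidant response element core (ARE, 30% against 14%) differ most.

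Some peaks could not be assigned to a single gene. In each TKO library 10 of 46 member peaks (21.7%) also lay within 1 kb of a start of another protein-coding gene, against 24.4% and 24.7% over all genes. The neighbours were MRPL32 at PSMA2, PSMB9 at PSMB8, TAP1 at PSMB9, DNAJC2 at PSMC2, FTSJ3 at PSMC5, ATG4A at PSMD10, SIRT3 at PSMD13, RNF31 at PSME2, ACYP2 at PSME4 and CEP76 at PSMG2. All of these are transcribed on the opposite strand, and an overlapping gene model without a symbol also starts at PSMA2. At PSMA2 the summits lay 22 and 11 bp from the MRPL32 start in TKO and 213 and 202 bp from the PSMA2 start.

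Promoter peaks were also found at genes outside the symbol rule that belong to or work with the proteasome. Of a list of 27 associated proteins, shuttle factors, ubiquitin genes and regulators, 15 and 13 were bound in parental libraries 1 and 2, and all 27 in each of the TKO libraries, against 12.2%, 12.9%, 49.1% and 49.7% of all genes. The list held 12 genes bound in both parental libraries (44.4%, against 9.36% of all genes), 4 in 1 of them (6.16% of all genes) and 11 in TKO only (29.8% of all genes). With lists of equal length 15 and 11 of the 27 were bound in the parental libraries and 11 and 13 in those of TKO, with 1 bound in TKO only and 1 in parental cells only. UBA1, the main E1 enzyme, had 57 and 56 parental summit reads, then 103 and 62 in TKO, or 2.16, 2.52, 5.16 and 4.76 RPM, a ratio of 2.12. Its peak carried CACGTG within 50 bp of the summit in all 4 libraries.

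UBQLN4, a shuttle receptor, came near the level of PSMD9 but stayed below it in each library, without an E-box within 50 bp of its summit, at 3.18, 4.01, 7.12 and 7.59 RPM. The proteasome regulators NFE2L1 and NFE2L2 were bound in all 4 libraries too, at 2.01, 1.98, 4.96 and 4.91 RPM for NFE2L1 and 0.795, 1.35, 2.76 and 5.37 for NFE2L2. TKO values exceeded parental values at both genes, as they did at 99% of the 1843 genes bound in all 4 libraries. Also bound in both parental libraries were UCHL5, PAAF1, RAD23B, ZFAND5, RPS27A and UBA6, with ratios from 1.88 at RAD23B to 2.87 at ZFAND5.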

How the data were processed

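The members and gene lists were chosen with earlier results of these data known. The authors aligned 50-cycle single reads to hg19 and called peaks per library against input (Novoalign 3.08.02 and MACS2 2.1.1.20160309 per the submitters' processing notes). The deposited lists give a fold (a ratio of summit to local background), −log10 p and q values and a score. The score was not used. Because MACS2 computes fold and p from summit reads and background, both were solved for, and whole reads matched p within 0.002 in 100% of peaks. This recovery and the promoter assignment were tested on simulated data. Depth assumed a genome of 2700000000 bases and an extension equal to the narrowest peak of a list. GRCh37 with GENCODE 44 (lifted) gave 55869 basic transcript starts. A gene with several promoter peaks took the one of highest fold. Libraries were compared by exact permutation (SciPy 1.17.1, Python 3.11.15), and gene lists were described without tests. Subcomplexes followed textbook roles. Full values were given for members bound in both parental libraries, the 6 highest and 3 lowest ranked TKO-only members, PSMB5 to PSMB10 and members without peaks. Others were chosen after their values were seen. Alternatives covered windows, starts, thresholds, list length and left-out libraries, and a start restricted to the canonical transcript and a limit on summit spread were added after seeing the data. The inputs had no list of their own and were not analysed here. Values of some genes of the associated list are not reported here.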

Additional observations from a re-analysis of the deposited data

How the results depend on the processing

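The sign of the difference between the means held under every alternative run for the 4 results that compare the lines (bound members, summit ratio, percentile and E-box share), although the libraries overlapped in bound members at equal list length. The counts moved most with how many peaks entered. With a fold of at least 5, the TKO to parental ratio of bound members was 4.32, 7 members were bound in both parental libraries, and the E-box share differed by -26.8 percentage points. With lists of equal length that ratio was 1.28, TKO-only members numbered 1, and the percentile difference was 15.2 points. Leaving out each library in turn gave ratios of bound members from 2.56 to 2.88, 26 to 29 TKO-only members, 14 to 18 members bound in the parental libraries left, summit ratios from 2.20 to 2.86, percentile differences from 30.8 to 36.3 points and E-box differences from -14.4 to -12.3 points. With 1 library in an arm these were values without a test. The summit ratio ranged from 1.91 to 3.15 over all its alternatives. Limited to 9 members whose summits coincided it was 2.70, and at canonical starts 2.31. Taken within replicate numbers (a replicate block), the ratio of bound members was 2.71, the summit ratio 2.51, the percentile difference 33.6 and the E-box difference -13.4. Same-numbered libraries shared only a number, and their deviations correlated at 0.0722 over 1843 genes. Depth limits absent peaks, and 2 libraries per line cannot give a p under 0.333.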
